A study of Rattus norvegicus with 939 samples.

Results

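Venlafaxine is an antidepressant that blocks the reuptake of serotonin and noradrenaline, and here it was given at 1481 uM in dimethyl sulfoxide (DMSO) to primary rat hepatocytes in culture. The arrays described are the 6 of 939 in the series whose compound label is Venlafaxine, 3 after 0.67 d and 3 after 1 d of exposure, and they were compared with the 16 vehicle arrays whose description names venlafaxine, 8 at each time, which received DMSO at 0 uM of any compound. DMSO was the vehicle of both arms. The series holds 826 arrays of 125 compounds and 113 vehicle arrays, and poly(A) RNA was hybridized to Affymetrix rat arrays of 31099 probe sets. Strain, age, medium and the number of animals behind the cultures are not given in the sources used here, a single dose was tested, and nothing states whether replicate arrays came from separate cultures, so that each p-value measures the spread between these arrays, which may be technical.

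In the brain the drug acts on the transporters SLC6A4 and SLC6A2, and in the human liver it is metabolised mainly by CYP2D6. Hepatocytes make the plasma proteins, urea and bile acids of the body and conjugate foreign compounds. In a stressed cell several kinases phosphorylate the initiation factor eIF2α, which lowers protein synthesis as a whole but favours translation of the transcription factor ATF4. ATF4 then activates genes of amino acid uptake and synthesis together with the gene of the factor CHOP, Ddit3. The cultures carried hepatocyte markers at high levels. The 13 hepatocyte markers measured averaged log2 11.14 on the venlafaxine arrays (lowest array 10.72, highest 11.70) and 11.79 on the control arrays (11.52 to 12.07), with albumin, Alb, not called at a log2 difference of −0.02 ± 0.03 (± is the standard error of the fit throughout, 6 venlafaxine against 16 control arrays), and 3 of the 13, Cps1, Hnf4a and Fgb, were called lower in the comparison given below. The mean over 9 Kupffer cell markers was 5.85 on the venlafaxine arrays (5.39 to 6.63) and 5.97 on the control arrays (5.29 to 7.95), over 9 endothelial markers 4.97 (4.47 to 5.61) and 5.48 (4.83 to 6.30), over 7 cholangiocyte markers 5.05 (4.97 to 5.19) and 5.24 (5.11 to 5.44), and over 12 stellate cell markers 5.53 (5.19 to 6.18) and 5.71 (5.24 to 6.59). Single markers lay well above these means, with averages over the 22 arrays of 10.63 for Cd68, 9.20 for Lyz2 and 8.33 for Epcam. Cd68 of Kupffer cells was called higher, a call lost in 21 of 30 alternatives, and Lyz2 of Kupffer cells, Kdr of endothelium (other probe set −0.05) and Epcam of cholangiocytes were called lower, calls lost in 1 of 30, 6 of 29 and 6 of 30. None of these 4 calls held on the 1 hybridization day that both arms shared. On that day the median log2 fold change of the Kupffer cell markers was −0.88, against 0.01 over all 22 arrays. For the endothelial markers it was −0.42 against −0.25, for the cholangiocyte markers 0.00 against −0.11 and for the stellate cell markers −0.22 against −0.20. The part of other cells in the results below, those of chemokine and interferon genes included, was not tested. In RNA of whole cultures, fewer cells of a type and less RNA per cell cannot be told apart.

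Venlafaxine changed 2470 of 14218 genes (17.4%) at a Benjamini-Hochberg adjusted p of 0.01 or less and a change of 1.5-fold or more, in a limma fit with exposure time as a factor. Of these, 1180 (8.3%) were higher and 1290 (9.07%) lower with venlafaxine than in controls, and the median log2 fold change over all genes was −0.02. A change of 2-fold or more was reached by 374 of the genes called higher and 569 of those called lower, and of 4-fold or more by 30 and 80. The plot by gene list shows where these calls lay in lists of known function.

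**Figure D1:**
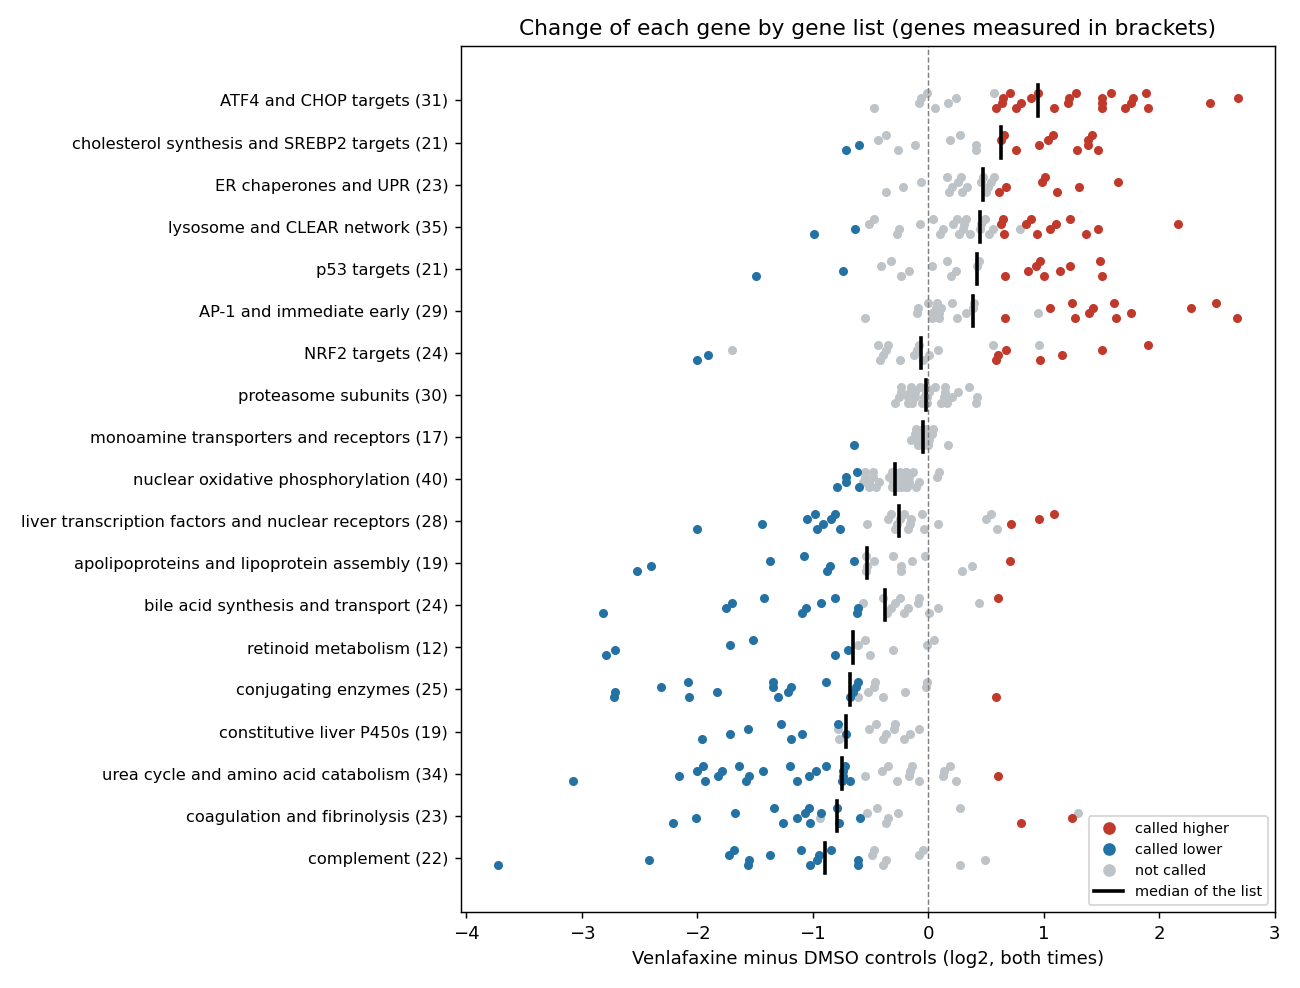
Log2 fold change, venlafaxine minus DMSO controls over both times, of each measured member of 19 gene lists (1 point a gene, red where called higher, blue where called lower, grey where not called, black bar the median of the list, number of measured genes in brackets). The medians run from 0.95 for ATF4 and CHOP targets to −0.90 for complement.

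The arrays were hybridized on several days. Only 1 day held both arms at both times, with 4 venlafaxine arrays (replicates 1 and 3) and 4 control arrays (replicates 5 and 8). On it 798 genes (5.61%) were called higher and 1024 (7.2%) lower, and 1631 of these 1822 calls were the same as in all 22 arrays. With hybridization day as a fixed block 2444 genes were called, 2161 of them the same. On one further day 1 venlafaxine array and 2 control arrays met, too few for a value. The p-values and standard errors of single genes below count every array as separate, although arrays of the same replicate number deviated together across times. With the 2 arrays of a number averaged, 3 against 8, p-values were larger. The limma adjusted p was then 6.49e-05 for Ddit3, 2.04e-05 for Rsad2 and 1.86e-07 for Gldc. The lists below were written by hand with earlier results of these data known, so their counts and medians are descriptions without a test, to be read beside the shares just given. The largest changes were picked only among genes with groups apart at both times. Ddit3, Gdf15, Rsad2, Cd69, Cps1, Gldc and Mbl2 are among them, so their lack of overlap below is not a separate result. Over all genes tested, 1593 had the venlafaxine arrays above the controls in this way and 1390 below.

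Of 31 measured targets of ATF4 and CHOP, 23 were called higher and 0 lower, and the median log2 fold change was 0.95 against −0.02 over all genes. On the single shared hybridization day 16 were called higher with a median of 0.87. Ddit3, which encodes CHOP, a factor linked to cell death under prolonged stress, read 11.67, 11.27 and 10.94 at 0.67 d and 11.86, 11.26 and 10.94 at 1 d on the venlafaxine arrays, against control arrays from 8.39 to 10.37 (median 9.29) at 0.67 d and from 7.82 to 9.43 (median 8.57) at 1 d. Every venlafaxine array lay above every control array of its time, and the log2 fold change was 2.44 ± 0.25 (limma adjusted p = 2.15e-08). Gdf15, a secreted cytokine of the stress response, stood at 8.81, 9.03 and 9.45 at 0.67 d and 8.49, 9.10 and 9.68 at 1 d on the venlafaxine arrays, against control arrays from 5.99 to 7.16 (median 6.34) at 0.67 d and from 5.82 to 6.93 (median 6.32) at 1 d. The groups did not overlap at either time, and the change, 2.68 ± 0.18 (limma adjusted p = 2.83e-11), was the largest of the list. Atf4 itself was 0.76 higher (called), with 12.42, 12.31 and 12.48 at 0.67 d on the venlafaxine arrays against 11.56 to 11.97 in controls, and the 1 d arrays were likewise apart.

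The list covers several tasks of the response. Among amino acid carriers Slc7a11, the cystine/glutamate exchanger, changed by 1.90 ± 0.37, Slc7a1 by 1.77 and Slc7a5 by 1.70, and among enzymes asparagine synthetase, Asns, changed by 1.21 and the mitochondrial folate enzyme Mthfd2 by 1.58. The pseudokinase Trib3, which restrains ATF4 and AKT, changed by 1.51 ± 0.11, and Ppp1r15a, which encodes the phosphatase subunit that dephosphorylates eIF2α, by 1.88 ± 0.11. All of these were called higher. The 8 members that were not called lay between −0.47 for Ddit4 and 0.57 for Cebpg, and Inhbe, at 0.06, was among them.

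Promoters of 28 list members were taken from RefSeq (rat assembly GRCr8), each running from 250 bases before to 50 bases after the start of the gene. The 8 letters TGATGCAA, the composite element at which C/EBP and ATF factors pair, stood on either strand in 5 of the 28 (17.86%), against 72 of 11734 promoters of all genes tested (0.61%), 1.29% of 1004 promoters of genes called higher and 0.66% of 1067 of genes called lower. The 4 promoters of called genes that hold it are shown because their genes changed together, with the element in capitals, in the orientation of the gene, so that all 4 carry it as the reverse complement. The first base of the element lies 167 bases before the start in Chac1 (chr3:126795881-126796180, plus strand), 55 before it in Nupr1 (chr1:190645852-190646151, minus strand), 143 before it in Fgf21 (chr1:105221327-105221626, minus strand) and 112 before it in Aars1 (chr19:55908232-55908531, plus strand). The fifth promoter is that of Inhbe, which was not called.
Chac1: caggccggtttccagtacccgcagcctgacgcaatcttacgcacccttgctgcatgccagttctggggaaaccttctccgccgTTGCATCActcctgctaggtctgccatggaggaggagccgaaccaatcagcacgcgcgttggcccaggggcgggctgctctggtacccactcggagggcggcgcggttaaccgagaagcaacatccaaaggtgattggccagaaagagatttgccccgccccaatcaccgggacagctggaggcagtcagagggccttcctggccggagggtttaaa
Nupr1: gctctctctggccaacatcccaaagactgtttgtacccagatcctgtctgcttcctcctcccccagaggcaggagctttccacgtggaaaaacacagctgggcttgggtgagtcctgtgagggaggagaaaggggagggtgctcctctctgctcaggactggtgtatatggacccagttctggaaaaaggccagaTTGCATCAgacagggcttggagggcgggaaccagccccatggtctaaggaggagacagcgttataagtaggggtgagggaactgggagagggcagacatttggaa
Fgf21: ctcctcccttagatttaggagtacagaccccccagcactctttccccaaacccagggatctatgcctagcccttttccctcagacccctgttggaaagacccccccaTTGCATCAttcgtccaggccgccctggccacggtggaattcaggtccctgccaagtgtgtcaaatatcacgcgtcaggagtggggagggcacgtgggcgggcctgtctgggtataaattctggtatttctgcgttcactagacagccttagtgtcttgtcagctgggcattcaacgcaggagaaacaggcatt
Aars1: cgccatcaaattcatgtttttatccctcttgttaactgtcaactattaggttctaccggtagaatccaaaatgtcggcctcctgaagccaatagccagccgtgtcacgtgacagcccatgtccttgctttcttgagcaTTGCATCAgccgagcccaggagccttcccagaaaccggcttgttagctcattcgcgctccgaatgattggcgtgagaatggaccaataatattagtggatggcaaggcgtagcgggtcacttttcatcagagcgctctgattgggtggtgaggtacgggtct

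Chac1, whose enzyme breaks down glutathione, stood at 8.70, 8.92 and 8.03 at 0.67 d and 8.44, 8.66 and 8.05 at 1 d on the venlafaxine arrays, against control arrays from 7.41 to 8.04 (median 7.61) at 0.67 d and from 7.22 to 7.79 (median 7.51) at 1 d. A venlafaxine array at 0.67 d, replicate 3, lay just under the highest control of that time, while at 1 d the groups were apart, and the change was 0.89 ± 0.12 (limma adjusted p = 9.2e-07). Nupr1, a small stress-induced nuclear protein, changed by 1.27 ± 0.18, and the hormone gene Fgf21 by 1.22 ± 0.25. For both genes a venlafaxine array overlapped a control. Aars1, the alanyl-tRNA synthetase, stood at 11.93, 11.76 and 11.87 at 0.67 d and 11.91, 11.72 and 11.82 at 1 d on the venlafaxine arrays, against control arrays from 10.90 to 11.38 (median 11.07) at 0.67 d and from 10.85 to 11.14 (median 10.99) at 1 d. Its change was smaller, 0.80 ± 0.06, but all 6 venlafaxine arrays lay above all controls of their time. A match to these letters describes the sequence and was not tested for binding. The list was written to hold targets of ATF4 and CHOP, so its share of promoters with the letters does not bear on venlafaxine.

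**Figure D2:**
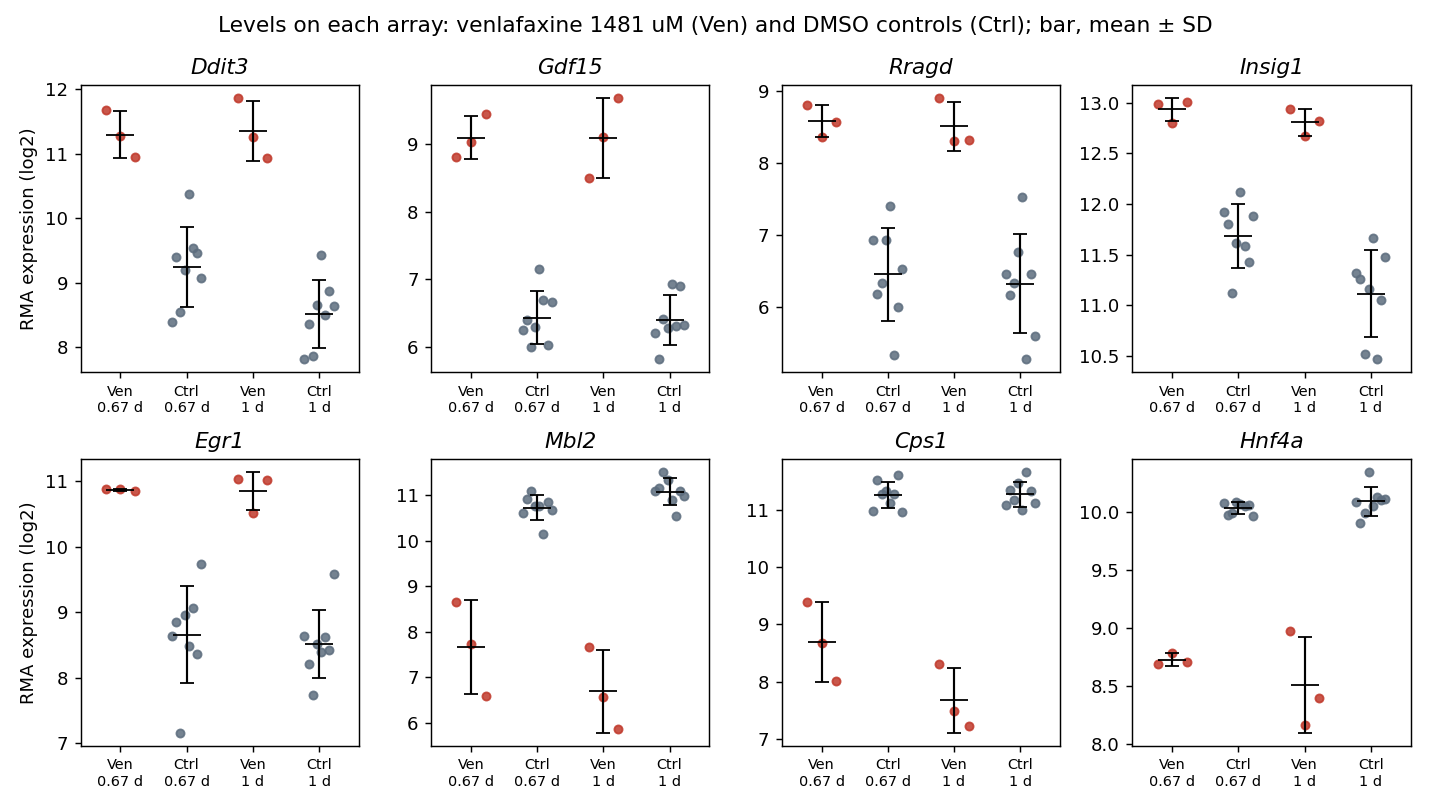
RMA expression (log2) of 8 genes on each array, with venlafaxine left of its DMSO controls at 0.67 d and at 1 d (points are arrays, 3 with venlafaxine and 8 controls per time, bars mean ± SD). Ddit3, Gdf15, Rragd, Insig1 and Egr1 lie above, and Mbl2, Cps1 and Hnf4a below, every control array of the same time.

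A list of chaperones of the endoplasmic reticulum and other genes of the unfolded protein response came next. Of its 23 measured members, 7 were called higher and 0 lower, with a median of 0.48, which was 0.23 at 0.67 d and 0.72 at 1 d. The list also holds regulators such as Crebrf and Atf6, both called higher, so these counts are not of chaperones alone. The number called higher ran from 4, on the shared hybridization day, to 13 over the alternatives. The largest change was that of Crebrf, a regulator of the CREB3 factors, at 1.64 ± 0.09, followed by the chaperone partner Dnajb9 at 1.31 ± 0.12. Hspa5, the main chaperone of the compartment, was called higher at 0.67, and Xbp1 and the disulphide isomerase Pdia6 stood at −0.06 and 0.17 without a call. The 30 measured proteasome subunits lay between −0.29 and 0.42, all within 1.5-fold. Of 21 measured p53 targets 9 were called higher and 2 lower (median 0.42), with the exonuclease Aen at 1.48 ± 0.09, Sesn2 at 1.51 and the cell cycle inhibitor Cdkn1a at 1.14 ± 0.20 among those that rose, and Tp53inp2 at −1.49 and Sesn1 at −0.74 as those that fell. Sesn2, whose other probe set changed by 0.37, also stands in the ATF4 list. The other probe set of Tp53inp2 changed by −0.59.

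Basic lipophilic amines, such as many antidepressants, accumulate in lysosomes, the compartment that also returns sterol to the cell. Of 21 measured genes of cholesterol synthesis and SREBP2 11 were called higher and 2 lower (median 0.63), and the count of 11 was the same on the shared hybridization day. Insig1, which holds the sterol sensor in the endoplasmic reticulum and is itself induced when sterol is low, read 12.99, 12.80 and 13.01 at 0.67 d and 12.93, 12.67 and 12.82 at 1 d on the venlafaxine arrays, against control arrays from 11.12 to 12.12 (median 11.71) at 0.67 d and from 10.47 to 11.66 (median 11.21) at 1 d. The groups were apart at both times, and the change was 1.47 ± 0.15 (limma adjusted p = 3.28e-08). Acat2, the cytosolic thiolase at the head of the pathway, changed by 1.41 ± 0.15 and lanosterol synthase, Lss, by 1.38. The members that fell were Tmem97, a regulator of the cholesterol carrier NPC1, at −0.71 ± 0.10 and Dhcr7, which makes cholesterol in the last step, at −0.60 ± 0.13. The call of Dhcr7 was lost in 10 of 30 alternatives. Of 16 genes of fatty acid synthesis and desaturation, Fasn was called higher at 1.33 and 4 were called lower, among them Acss2 at −1.28 and Gpam at −0.92.

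Of 35 measured lysosomal genes 12 were called higher and 2 lower (median 0.45), with 8 and 3 on the shared hybridization day. Rragd, a GTPase that brings the kinase mTORC1 to the lysosome, stood at 8.81, 8.37 and 8.57 at 0.67 d and 8.90, 8.31 and 8.32 at 1 d on the venlafaxine arrays, against control arrays from 5.33 to 7.40 (median 6.42) at 0.67 d and from 5.27 to 7.53 (median 6.39) at 1 d. No venlafaxine array overlapped a control, with a change of 2.16 ± 0.26 (limma adjusted p = 2.75e-07). On the shared day its call was lost (1.89, limma adjusted p = 0.0114). Atp6v1b2, a subunit of the proton pump, changed by 1.47 ± 0.11, folliculin, Flcn, by 1.36 and the lysosomal phospholipase Pla2g15 by 1.23. Of the proteases Ctsh was called lower at −0.99 ± 0.11, and Ctsb, Ctsd and Ctsl stood at 0.22, 0.31 and 0.25 without a call. Glb1, β-galactosidase, was called lower at −0.63 ± 0.08. The letters TCACGTGA, the core of the CLEAR element to which the factor TFEB binds and which reads alike on both strands, stood in 4 of 27 promoters of the list (14.81%), against 1.46% of all genes tested, 3.09% of genes called higher and 0.47% of those called lower. Those 4 genes, Lamp1, Ctsd, Mcoln1 and Atp6v0d1, changed by 0.26 to 0.56, and none of them reached the bound of 1.5-fold. As the list was written to hold genes under the CLEAR element, its share of promoters with the letters does not bear on venlafaxine.

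The factors of the immediate early response formed a list in which 12 of 29 measured genes were called higher and 0 lower, with a median of 0.39. On the shared day 10 were called higher. Egr1, a zinc finger factor that growth factors and stress induce within minutes, read 10.87, 10.87 and 10.85 at 0.67 d and 11.02, 10.52 and 11.01 at 1 d on the venlafaxine arrays, against control arrays from 7.16 to 9.74 (median 8.74) at 0.67 d and from 7.73 to 9.58 (median 8.47) at 1 d. At 0.67 d the 3 venlafaxine arrays lay close together and above all controls, and those at 1 d also lay above theirs, with a change of 2.27 ± 0.25 (limma adjusted p = 5.67e-08). The Krüppel-like factor Klf4 changed by 2.68 ± 0.19, the small Maf protein Maff by 2.49 ± 0.25 and the AP-1 member Fosl1 by 1.61. Fos and Jun, the founding members of AP-1, stood at 0.07 and −0.10 and were not called, and neither was Nr4a1 at 0.09.

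Other genes with large changes stood outside these lists. Rsad2, viperin, an antiviral protein induced by interferon, had the largest rise, 3.45 ± 0.29 (limma adjusted p = 1.41e-09). It read 12.31, 11.82 and 12.10 at 0.67 d and 12.36, 11.49 and 11.57 at 1 d on the venlafaxine arrays, against control arrays from 7.99 to 10.13 (median 8.89) at 0.67 d and from 7.15 to 9.37 (median 7.91) at 1 d. The groups did not overlap, which the rule for the largest changes required of Rsad2 and of Cd69. Cd69, a surface lectin best known as an early activation antigen of lymphocytes, stood at 8.15, 8.02 and 7.43 at 0.67 d and 8.54, 7.99 and 7.85 at 1 d on the venlafaxine arrays, against control arrays from 4.46 to 5.45 (median 4.80) at 0.67 d and from 4.17 to 4.97 (median 4.56) at 1 d. Its change was 3.31 ± 0.15 and the arrays were apart at both times. Klf5 changed by 2.84 ± 0.13, the insulin receptor adaptors Sh2b2 and Irs2 by 2.89 ± 0.16 and 2.31 ± 0.18, the RNase P subunit Rpp25 by 2.51 ± 0.22, the syntenin Sdcbp2 by 2.36 ± 0.23 and the membrane protein Emp1 by 2.33 ± 0.23. For Klf5, 1 of its 4 probe sets, of low level, changed by 0.11 where the one used changed by 2.84.

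Lists of hepatocyte function held most of their calls in the other direction. Of 34 measured genes of the urea cycle and amino acid catabolism 21 were called lower and 1 higher (median −0.74), and 11 and 0 on the shared hybridization day with a median of −0.77. Cps1, carbamoyl phosphate synthetase, which brings ammonia into the urea cycle, stood at 9.39, 8.68 and 8.00 at 0.67 d and 8.30, 7.49 and 7.22 at 1 d on the venlafaxine arrays, against control arrays from 10.95 to 11.60 (median 11.27) at 0.67 d and from 10.99 to 11.66 (median 11.25) at 1 d. Every venlafaxine array lay below every control, and the change was −3.08 ± 0.19 (limma adjusted p = 1.48e-11). Otc, the next step of the cycle, changed by −1.82 and Arg1, the last, was called lower as well, while Ass1 stood at 0.24 without a call and Asl, which follows it, was called higher at 0.61, a call lost in 14 of 30 alternatives. Outside the list, Gldc, the decarboxylase of the glycine cleavage system, read 6.67, 6.64 and 6.44 at 0.67 d and 5.77, 5.91 and 6.35 at 1 d on the venlafaxine arrays, against control arrays from 9.28 to 10.19 (median 9.79) at 0.67 d and from 9.21 to 10.13 (median 9.66) at 1 d. The groups were apart at both times, with a change of −3.39 ± 0.14 (limma adjusted p = 4.69e-14), while its other probe sets, of lower level, changed by −1.30 and −0.66. Qprt, a list member of the route from tryptophan to NAD, changed by −2.16 ± 0.14 (other probe set −0.79), and outside the list Hao1, glycolate oxidase, changed by −3.23 ± 0.23 and Bhmt2, a methyltransferase, by −3.09 ± 0.36. The change of Bhmt2 missed the bound on the shared day, at −2.63 with a limma adjusted p of 0.0199.

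Genes of plasma proteins are given by list. Of 27 measured acute phase and other plasma proteins 6 were called lower and 1 higher (median −0.30), calls that were all lost on the shared hybridization day. Albumin, Alb, the protease inhibitor Serpina1, fetuin, Ahsg, and Orm1 stood at −0.02, 0.04, −0.12 and −0.03 without a call. Of 22 measured complement genes 14 were called lower and 0 higher (median −0.90), and 8 on the shared hybridization day. Mbl2, a mannose-binding lectin that starts the lectin pathway, read 8.65, 7.74 and 6.59 at 0.67 d and 7.66, 6.56 and 5.85 at 1 d on the venlafaxine arrays, against control arrays from 10.15 to 11.10 (median 10.77) at 0.67 d and from 10.55 to 11.52 (median 11.09) at 1 d. This was the largest fall of all genes, −3.73 ± 0.27 (limma adjusted p = 9.84e-11), and the 3 venlafaxine arrays of a time, though spread more widely than the controls, all lay below them. C5 changed by −2.42 ± 0.20. Of 23 coagulation and fibrinolysis genes 13 were called lower (median −0.79; 5 on the shared day), led by Klkb1, prekallikrein, at −2.21 ± 0.32 and factor V, F5, at −2.01 ± 0.19, and 2 were called higher, the urokinase receptor Plaur at 1.24 (other probe set 0.16) and the plasminogen activator Plat at 0.80, a call lost in 4 of 30 alternatives. The call of Klkb1 was lost on the shared day (−1.64, limma adjusted p = 0.108). Of 19 genes of apolipoproteins and lipoprotein assembly 7 were called lower and 1 higher (3 and 0 on the shared day). The member called higher was Abca1 at 0.71, a call lost in 10 of 30 alternatives. Apob, the protein of very low density lipoprotein, and Mttp, the transfer protein that loads it with lipid, changed by −2.40 ± 0.13 and −2.53 ± 0.17, whereas Apoe stood at −0.03.

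Enzymes that handle foreign compounds formed the next lists. Of 25 measured conjugating enzymes 16 were called lower and 1 higher (median −0.68; 8 and 0 on the shared day), with the glucuronosyltransferase Ugt2b15 at −2.71 ± 0.23 and Gstp1 the one that rose, at 0.59, a call lost in 13 of 30 alternatives. Of 19 constitutive P450s 8 were called lower and 0 higher (median −0.72), and all 19 had a negative change, against 7524 of all 14218 genes tested. On the shared day 3 were called lower and the median was −0.39. Cyp2c12, a P450 of female rat liver outside the list, changed by −3.31 ± 0.48, and its levels of 5.78, 4.33 and 5.06 at 0.67 d lay below controls of 6.58 to 9.25. Of 24 genes of bile acid synthesis and transport 10 were called lower and 1 higher (2 and 0 on the shared day), among them Baat, which joins bile acids to amino acids, at −2.81 ± 0.20. Of 12 retinoid genes 6 were called lower, among them the retinal reductase Dhrs3 at −2.79 ± 0.27, read at 6.02, 6.23 and 6.19 at 0.67 d against 7.18 to 9.25 in controls.

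Among 28 measured liver transcription factors and nuclear receptors 9 were called lower and 3 higher (median −0.26). Hnf4a, a nuclear receptor that maintains the hepatocyte programme, stood at 8.69, 8.79 and 8.71 at 0.67 d and 8.97, 8.17 and 8.40 at 1 d on the venlafaxine arrays, against control arrays from 9.96 to 10.09 (median 10.05) at 0.67 d and from 9.90 to 10.35 (median 10.09) at 1 d. The groups were apart at both times, and the change was −1.44 ± 0.08 (limma adjusted p = 4.1e-12), with the other probe sets at −1.10 and −1.08. Onecut1, HNF6, was called lower too, as was Prox1, a factor of liver development, at −1.05 ± 0.10. The receptors Nr1i2 (PXR) and Nr1i3 (CAR) were called lower at −0.98 and −0.77. In the other direction Cebpb changed by 1.09 ± 0.13, Klf15 by 0.96 ± 0.08 and Cebpa by 0.71 ± 0.13.

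The drug's own targets and enzymes in this tissue gave a mixed account. Slc6a4, the serotonin transporter, stood at 4.35, 4.53 and 4.51 at 0.67 d and 4.52, 4.66 and 4.56 at 1 d on the venlafaxine arrays, against control arrays from 4.17 to 4.85 (median 4.54) at 0.67 d and from 4.41 to 4.71 (median 4.52) at 1 d. Slc6a2, the noradrenaline transporter, lay between 4.49 and 4.82 with venlafaxine and between 4.35 and 5.09 in controls. Both were near the low end of the scale on every array, both groups overlapped, and their changes were −0.01 ± 0.07 and 0.01 ± 0.09. Of 17 measured monoamine transporters and receptors 1 was called lower and 0 higher by limma, the α1B-adrenoceptor Adra1b, the main adrenoceptor of rat liver, at −0.64 ± 0.15, with an overlap between groups at 0.67 d and the call lost in 8 of 30 alternatives. Of 7 enzymes that act on monoamines 4 were called lower. Maob, monoamine oxidase B, read 8.31, 7.56 and 7.03 at 0.67 d and 6.85, 6.89 and 6.65 at 1 d on the venlafaxine arrays, against control arrays from 8.98 to 9.69 (median 9.38) at 0.67 d and from 9.84 to 10.44 (median 9.98) at 1 d, which are levels apart at both times, with a change of −2.49 ± 0.21 (limma adjusted p = 1.37e-09). Maoa changed by −1.11 ± 0.11, the phenol sulfotransferase Sult1a1 by −2.72 ± 0.26 and Aldh2 by −0.70 ± 0.10. Of the 3 measured members of the Cyp2d family, Cyp2d4 was called lower at −1.04 ± 0.07. Its level was 6.75 to 7.29 on the venlafaxine arrays and 7.94 to 8.40 in controls, without overlap. The others, Cyp2d3 and Cyp2d2, stood at −0.36 ± 0.17 and −0.09 ± 0.21, overlapped the controls and were not called. Abcb1a, a P-glycoprotein gene, was the member of 6 cation transporters and pumps that was called, and it read 10.46, 10.73 and 10.34 at 0.67 d and 10.63, 10.68 and 10.24 at 1 d on the venlafaxine arrays, against control arrays from 8.51 to 9.15 (median 8.67) at 0.67 d and from 7.59 to 8.47 (median 8.30) at 1 d. It rose by 2.03 ± 0.12 (limma adjusted p = 8.89e-12), with the groups apart.

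**Figure D3:**
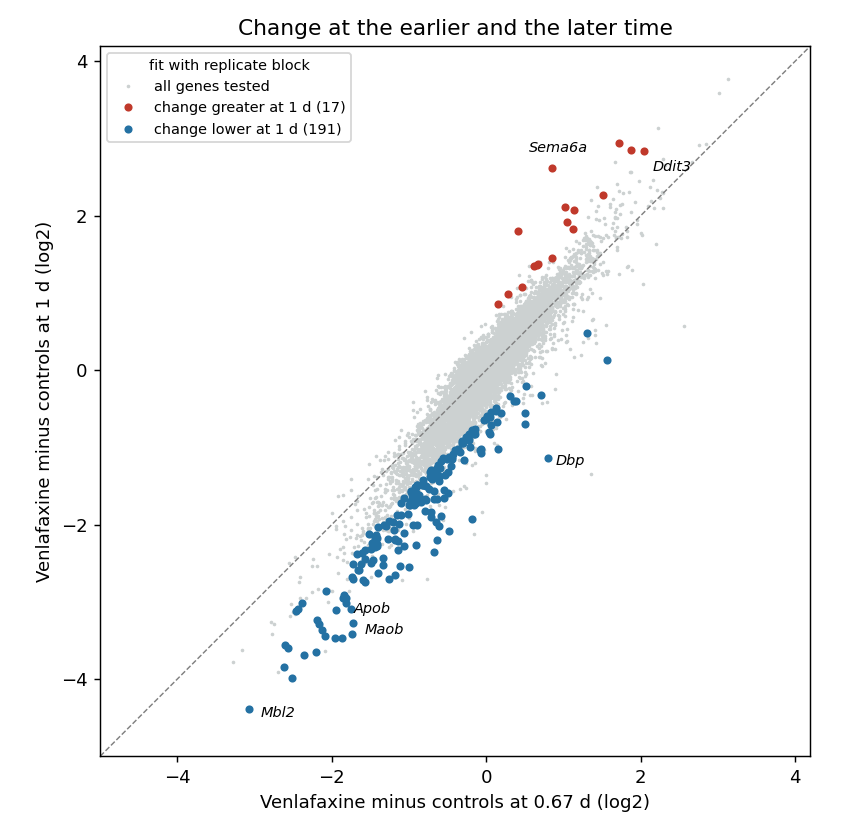
Venlafaxine minus DMSO controls (log2) at 0.67 d on the x axis and at 1 d on the y axis for each of 14218 genes (grey), with the genes whose change differed between times in the fit with a replicate block in red (17) or blue (191) and the diagonal dashed. Most blue points lie below both zero lines, where genes that were lower at 0.67 d were lower still at 1 d.

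The times were compared next. In a fit of the 4 groups, at 0.67 d 967 genes were called higher and 861 lower, at 1 d 1277 and 1509, and 854 and 822 were called at both times. Without a block, the test of the difference between times called 1 gene of 14218 (0.00703%), Apob, and 1172 genes had an unadjusted p under 0.05. Apob stood at 10.35, 10.46 and 10.50 at 0.67 d and 9.40, 9.40 and 9.46 at 1 d on the venlafaxine arrays, against control arrays from 12.09 to 12.46 (median 12.29) at 0.67 d and from 12.09 to 12.57 (median 12.42) at 1 d. The 3 venlafaxine arrays of a time lay close together, all below the controls, and the change was −1.86 at 0.67 d and −2.95 at 1 d, a difference of −1.09 ± 0.14 (limma interaction, adjusted p = 0.00158), while its other probe set, of low level, changed by −0.48 over both times. Without any one of venlafaxine 0.67 d replicate 2, 1 d replicate 1 or 1 d replicate 2 the count was 0, without 0.67 d replicate 3 it was 7, and with the array median subtracted it was 0. Arrays of the same number at the 2 times deviated together within each arm, and with that number as a block the same test called 208 genes, 17 (0.12%) with a higher and 191 (1.34%) with a lower change at 1 d. Of the 191, 153 were also called lower against controls over both times, and of the 17, 16 were called higher.

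With this replicate block 5 of the 22 complement genes, 6 of the 25 conjugating enzymes, 4 of the 34 urea cycle and amino acid genes and 4 of the 12 retinoid genes had a lower change at 1 d. The median of the complement list was −0.70 at 0.67 d and −1.10 at 1 d, while that of the ATF4 and CHOP list was 0.99 and 0.98. For the list of chaperones and other genes of the unfolded protein response it was 0.23 and 0.72. Ddit3 was the sole member of the ATF4 and CHOP list called in this test, with 2.05 at 0.67 d and 2.83 at 1 d (difference 0.78 ± 0.14, limma with the replicate block, adjusted p = 0.00418). Sdf2l1 was the sole member called of the list of chaperones and other genes of the unfolded protein response, with 0.62 and 1.35 (difference 0.73 ± 0.12, limma with the replicate block, adjusted p = 0.00356). The genes that follow were chosen after their values were seen, for the size of the difference. Dbp, a clock output factor, had the largest negative difference, with 0.80 at 0.67 d and −1.13 at 1 d (−1.94 ± 0.24, limma with the replicate block, adjusted p = 0.000605). Its levels were 6.99, 6.52 and 7.08 at 0.67 d with venlafaxine against 5.78 to 6.61 in controls, and 6.88, 5.82 and 6.39 at 1 d against 7.16 to 8.34, so that the controls of the 2 times did not overlap while the venlafaxine arrays did. Sema6a, a semaphorin, had the largest positive difference, with 0.85 and 2.62 (1.77 ± 0.17), and Tgfb2 stood at 1.57 and 0.13 (−1.43 ± 0.24).

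Whether the response differs from that to other compounds was tested on treated arrays alone, venlafaxine minus the mean of the 8 other compounds that have the same 16 controls (cytochalasin B, doxepin, griseofulvin, ketoconazole, L-buthionine sulfoximine, tamoxifen, tretinoin and vinblastine, 48 arrays at other doses). Here 349 genes (2.45%) were higher and 196 (1.38%) lower with venlafaxine, of which 283 and 182 were also called in the same direction against controls. The count of lower genes was 122 without venlafaxine 1 d replicate 3 and 332 when vinblastine was left out of the 8. In the immediate early list 9 of 29 genes were higher than in the other compounds, against 2 of 31 in the ATF4 and CHOP list, 3 of 21 in cholesterol synthesis and 4 of 35 in the lysosomal list. Lower were 6 of 34 urea cycle and amino acid genes, 5 of 25 conjugating enzymes and 3 of 22 complement genes.

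**Figure D4:**
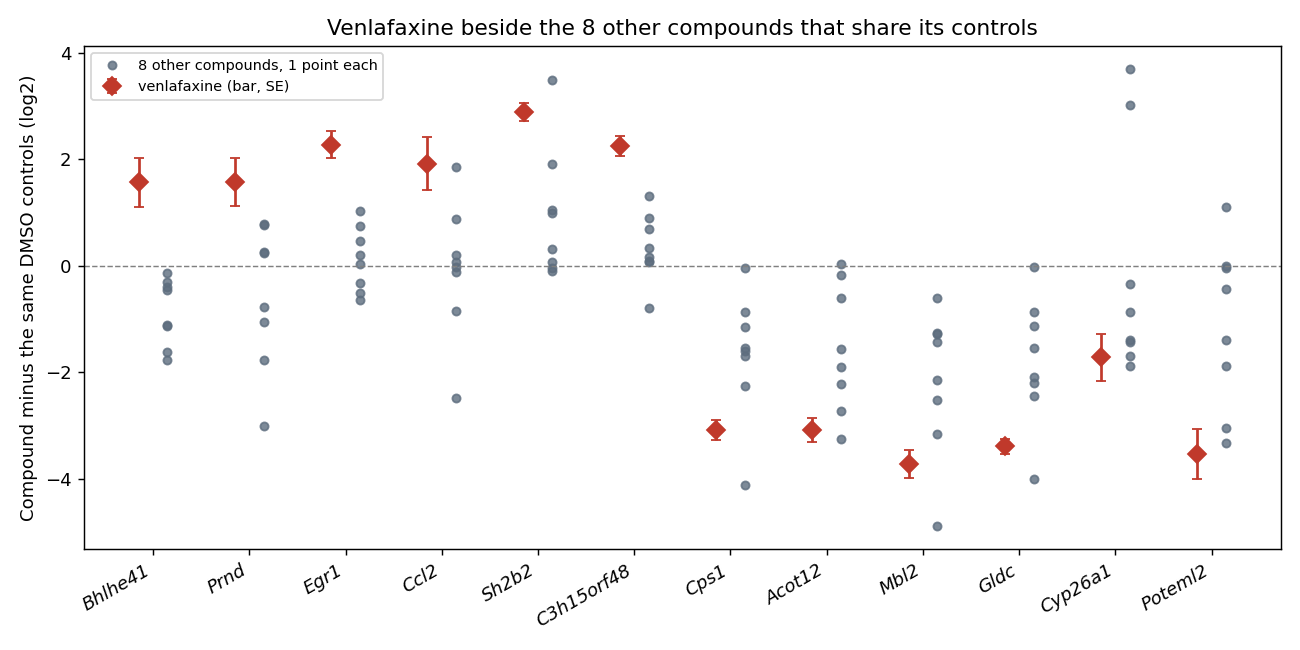
Log2 difference from the same 16 DMSO controls with venlafaxine (red diamonds, bars SE of the fit) and with each of the 8 other compounds (grey points), for the 12 genes that the naming rule gave for this comparison. For Bhlhe41, Prnd, Ccl2, Egr1 and C3h15orf48 venlafaxine lies above all 8, and for Sh2b2 vinblastine lies higher.

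Egr1 stood at 2.27 against controls with venlafaxine, where the 8 others ran from −0.65 to 1.03, a difference of 2.15 ± 0.25 (limma adjusted p = 1.17e-08). C3h15orf48, the rat homologue of a human mitochondrial protein gene, differed by 1.91 ± 0.16 (limma adjusted p = 1.8e-12), and its levels of 8.17 to 8.52 with venlafaxine lay above every control, the highest of which was 6.89. Bhlhe41, DEC2, a clock repressor, differed by 2.44 ± 0.36 (limma adjusted p = 1.25e-06), with 1.57 ± 0.46 against controls for venlafaxine and values from −1.78 to −0.14 for the 8 others. One venlafaxine array at 1 d, replicate 1, read 4.98 against 8.19 and 8.62 on the others of its time and lay below all controls, and the call against controls was lost in 18 of 30 alternatives. The chemokine Ccl2 differed by 1.97 ± 0.43 and Prnd, doppel, by 2.15 ± 0.59. Against controls Ccl2 stood at 1.92 with venlafaxine and at 1.86 with cytochalasin B. The other compounds ran from −2.49 with L-buthionine sulfoximine to 0.89 with vinblastine. Prnd stood at 1.58 with venlafaxine, and the 8 others ran from −3.02 with cytochalasin B to 0.78 with vinblastine. Both genes varied widely among controls, from 7.53 to 11.29 and from 4.26 to 8.15 at 0.67 d, and their calls against controls were lost in 8 and 15 alternatives. Sh2b2 differed by 1.93 ± 0.27.

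In the other direction Poteml2 differed by −2.40 ± 0.51 (limma adjusted p = 0.000349). Its controls ran from 5.36 to 9.55 over both times, above all venlafaxine arrays at 3.90 to 5.20. Against controls it stood at −3.53 with venlafaxine, −3.32 with cytochalasin B and −3.05 with vinblastine, and the other compounds ran up to 1.11 with griseofulvin. Gldc, Mbl2, Acot12 (a cytosolic acetyl-CoA thioesterase) and Cps1 differed by −1.60 ± 0.25, −1.56 ± 0.39, −1.53 ± 0.24 and −1.42 ± 0.28, and against controls they stood at −3.39, −3.73, −3.08 and −3.08 with venlafaxine and at −4.01, −4.89, −3.26 and −4.11 with vinblastine, one of the 8. Cyp26a1, the retinoic acid hydroxylase, differed by −1.61 ± 0.34, and its call against controls was lost in 4 of 30 alternatives. Against controls it stood at −1.72 with venlafaxine, at 3.70 with tretinoin, which is retinoic acid, and at 3.02 with cytochalasin B, and the other 6 lay between −1.89 and −0.34.

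Other antidepressants are in the series at lower doses and are given beside venlafaxine without a comparison, as doses differ. Against their own controls doxepin at 132 uM changed 1871 genes (13.2%), amitriptyline at 72 uM 1584 (11.1%), nortriptyline at 70 uM 2029 (14.3%), fluoxetine at 58 uM 1041 (7.32%) and sertraline at 23 uM 24 (0.169%). Doxepin has its 16 controls in common with venlafaxine. The median of the ATF4 and CHOP list was 0.95 with venlafaxine, 1.23 with doxepin, 1.13 with amitriptyline, 1.17 with nortriptyline, 0.95 with fluoxetine and 0.20 with sertraline. That of cholesterol synthesis was 0.63 with venlafaxine, 0.94 with doxepin, 0.93 with amitriptyline, 0.91 with nortriptyline, 0.98 with fluoxetine and 0.60 with sertraline. The medians of both lists were above 0 with each of the 6 drugs.

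Single genes are given in the same way. Ddit3 stood at 2.44 with venlafaxine, 2.39 with doxepin, 2.29 with amitriptyline, 2.86 with nortriptyline, 1.80 with fluoxetine and 0.63 with sertraline. Chac1 stood at 0.89 with venlafaxine, 1.77 with doxepin, 1.59 with amitriptyline, 2.05 with nortriptyline, 1.60 with fluoxetine and 0.17 with sertraline. Egr1 stood at 2.27 with venlafaxine, 0.75 with doxepin, 0.32 with amitriptyline, 0.95 with nortriptyline, 0.73 with fluoxetine and −0.22 with sertraline. These are differences from each drug's own controls, at its own dose. Maoa stood at −1.11 with venlafaxine, −0.37 with doxepin, −0.35 with amitriptyline, −0.14 with nortriptyline, −0.31 with fluoxetine and −0.16 with sertraline. Cyp2d2, not called with venlafaxine at −0.09, stood at −0.78 with doxepin and −0.81 with fluoxetine.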

How the data were processed

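The authors deposited log2 values of 31099 probe sets on 939 arrays, for which the submitters' notes name RMA without a version; the study's methods describe its frozen form for the DrugMatrix dataset, so which of the 2 made the deposited table is unsettled. RMA subtracts background, sets all arrays to one distribution and sums probes, so a change common to most genes is not seen. Each column matched 1 sample, and 0 were left over. Probe sets with 1 gene symbol (20832) were used, those with several (436) or none (9831) were not, 20818 matched RefSeq of GRCr8, and each of 14218 genes was represented by its probe set of highest mean (4526 genes had several). Other probe sets were checked only for the 133 genes picked for the size of their change by the naming rules below. Of these, 44 had several, 0 had one of opposite sign and 14 had one under 1.5-fold. Array medians were 5.52 to 5.55 with venlafaxine and 5.54 to 5.62 in controls. Arrays give no read depth, and their number limits the precision.

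Fits used limma 3.58.1 in R 4.3.3 (lmFit, eBayes), tested on simulated data, with Benjamini-Hochberg adjustment over all genes, bounds of 0.01 and 1.5-fold, and time as a covariate. Errors are standard errors of the fit. Figures used matplotlib 3.10.9. Groups came from the labels. Residuals of arrays of 1 number at both times correlated in 3 of 3 venlafaxine pairs (mean 0.647) and 8 of 8 control pairs (mean 0.645), so numbers, given in the labels, pair times within an arm; between arms they do not (mean 0.0238, 6 of 12 above 0.1).

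The members, lists and rules were chosen with earlier results of these data known. Named were the 12 largest changes in each direction among genes with groups apart at both times, the 2 largest per list and direction, called interactions up to 5 a direction, the 6 largest per direction against the 8 other compounds, and members of the monoamine, Cyp2d, transporter and marker lists; further list members are named for their role, after their values were seen. The alternatives covered the test, bounds, single times, centring, normalization, probe sets, a filter on low values, replicate, hybridization and extraction day blocks, and arrays left out.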

Additional observations from a re-analysis of the deposited data

Results flagged for a closer look

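One value was marked for a closer look because the effect of venlafaxine differed between the exposure times in a direct test without a replicate block. With a replicate block the same test called 17 genes with a higher and 191 with a lower change at 1 d. Apob was among them, and others such as Dbp, at −1.94, differed more. Apob, which encodes the main protein of very low density lipoprotein, changed by −1.86 at 0.67 d and −2.95 at 1 d on the log2 scale, a difference of −1.09 ± 0.14 (limma interaction, adjusted p = 0.00158), and its level was lower in 6 of 6 venlafaxine arrays than in any control of the same time. Of its 2 probe sets the other, of low level, changed by −0.48 over both times. In 64 sets of 8 control arrays, for the genes with the largest changes, those of the comparison with 8 other compounds, Apob and the array median, 0 had an array beyond Dixon's limit for 8 values. Sets of 3 venlafaxine arrays were too small for that test.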

How the results depend on the processing

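Under 30 alternatives, the 133 genes picked for the size of their change by the naming rules gave 3987 values. Of these values 3699 kept direction and call, 288 lost the call and 0 reversed, and 77 genes kept the call throughout. Other genes named above, such as Cdkn1a and Maoa, were not followed singly under the alternatives. For the 24 largest changes 718 of 720 values kept it, the exceptions being Poteml2 (−2.61, limma adjusted p = 0.0408) and Bhmt2 (−2.63, 0.0199) on the shared hybridization day. These 24 genes were chosen from the same data for large changes and groups apart, so the share that kept the call follows largely from that choice. A 2-fold bound left 943 genes against controls (374 higher, 569 lower) and 105 against the 8 other compounds (72 higher, 33 lower), fewer by construction. The 0.67 d arrays alone gave 841 lower, and leaving vinblastine out of the 8 gave 332 lower; the cause was not tested. Leaving out 1 replicate gave 2332 to 2579 calls against controls and 122 to 250 lower calls against the 8 others. For the difference between times, called for 1 gene, an adjusted p of 0.05 gave 8 genes, the replicate block within each arm 208, subtracting the array median 0, and leaving out 1 replicate 0 to 7. In the comparison with controls the fixed replicate block called 2748 genes and the random block 2436, of which 2344 and 2436 were also called without a block. Quantile normalization called 2454 genes against controls, the median of probe sets 2300, leaving out genes of low level 2309, hybridization day as a random block 2422, extraction day as a block 2403 (of which 2083 were also called without it) and the means of the 2 arrays of a number 2272. With extraction day as a block and with those means alike, the calls of Asl, Bhlhe41, Ccl2, Ccl7, Cd68, Epcam, Hamp, Kdr, Oas1a and Prnd were lost. Extraction day also ended those of Adra1b, Gstp1, Klkb1, Plat and Tmem97, and the means that of Cyp26a1. RMA sets all arrays to one distribution, 1 dose was tested, and 3 arrays per time limit the precision.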

Other observations

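Of 24 measured genes induced by interferon 3 were called higher and 6 lower, with a median of −0.36. On the shared hybridization day 3 were called higher and 1 lower, with a median of −0.17. Over all arrays the genes called higher were Rsad2 at 3.45, Tap1 at 1.13 ± 0.07 and Cxcl10 at 0.95 ± 0.26. Tap1 encodes the peptide transporter of antigen presentation (other probe set 0.20), and Cxcl10 is a chemokine. On the shared day Rsad2 changed by 3.33 and Tap1 by 1.09. Mx2, an antiviral GTPase, lay between 4.75 and 6.53 at 0.67 d and between 4.76 and 5.98 at 1 d on the venlafaxine arrays, against 6.47 to 9.31 at 0.67 d and 7.02 to 9.46 at 1 d in controls. One venlafaxine array lay inside the control range at 0.67 d, and the change was −2.68 ± 0.36, with the other probe set at −0.09 and the call lost on the shared day (−2.24, limma adjusted p = 0.0382). Oas1a changed by −1.34 ± 0.29, and its call was lost in 6 of 30 alternatives.

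Clock genes, fat oxidation and glucose metabolism also held calls. Of 17 clock genes 5 were called higher, among them Nr1d1 at 1.13 ± 0.19, and 1, Hlf, lower at −0.60 ± 0.10, a call lost in 10 of 30 alternatives. On the shared day that call was among those lost, and 3 clock genes were called higher. Of 30 targets of the fatty acid receptor PPARα 11 were called lower, led by the thioesterase Acot4 at −2.05 and the isomerase Eci2 at −1.69, and 4 higher, led by Pdk4, which shuts the pyruvate dehydrogenase complex, at 2.18 (lost in 2 of 30 alternatives) and Cpt1b at 1.41. Of 19 glucose genes Fbp1, the gluconeogenic bisphosphatase, fell at −2.11 (lost on the shared day, −1.84, limma adjusted p = 0.047) and Gys2, liver glycogen synthase, at −1.84, while Pfkfb3 rose at 1.50 (other probe sets 0.04 and 1.35) and Hk2, a hexokinase low in normal hepatocytes, at 1.27. Of 40 nuclear genes of oxidative phosphorylation 38 had a negative change, against 7524 of all 14218 genes tested. By limma 5 of the 40 were called lower and 0 higher, beside 9.07% of all genes called lower, with a median of −0.29 and Ndufs1 lowest at −0.79. On the shared day 8 were called lower and 0 higher, with a median of −0.32. Of 14 iron genes the bone morphogenetic protein co-receptor Hjv was called lower at −2.58, and the hormone Hamp was called higher at 1.18, a call lost in 15 of 30 alternatives.

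The list of cytokines and chemokines held calls in both directions, and that of the contractile cytoskeleton held lower calls only. Of 28 cytokine and chemokine genes of NF-κB 6 were called higher and 2 lower (1 and 1 on the shared hybridization day), with the monocyte attractant Ccl7 at 1.89 ± 0.45 among the higher (limma adjusted p = 0.0242 with the 2 arrays of a number averaged, a call lost in 7 of 30 alternatives) and Cxcl12, a chemokine of stromal cells, at −2.64 ± 0.23 the lowest (other probe sets −1.27 and −0.72). Of 30 targets of SRF and YAP and genes of actin 7 were called lower and 0 higher by limma, led by Mylk, a kinase of myosin, at −2.76 ± 0.22 (other probe set −0.61) and the microvillus protein Vil1, villin, at −1.82 ± 0.22. Of 24 NRF2 targets 7 were called higher and 2 lower, with a median of −0.07 close to that of all genes.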
